A study of Mus musculus with 24 samples.

Results

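The 10 genes described here are parts of the circadian clock: Per1, Per2, Per3, Cry1, Cry2, Arntl (which encodes BMAL1), Clock, Nr1d1 (which encodes REV-ERB alpha), Dbp and Ciart. They were taken by symbol from a table of 54446 genes, and all 10 were found. The list was chosen by knowledge of the clock together with group differences in FPKM already seen in these data, so the values and p-values below describe the listed genes and are no independent evidence for the choice. The data are bulk RNA sequencing of 24 libraries from mouse corpus callosum, the fibre tract between the cerebral hemispheres. Cuprizone is a copper chelator that kills oligodendrocytes and so strips axons of myelin. BTK inhibitor (BTKi) denotes a drug against Bruton's tyrosine kinase, a signalling enzyme of B cells and myeloid cells, and the design text places the treatment later than the induction of disease. The groups were naive mice given vehicle (n = 4), naive mice given BTKi (n = 4), cuprizone mice given vehicle (n = 8) and cuprizone mice given BTKi (n = 8). The time of day of dissection was not given in the sources used here, nor were strain, age, compound, dose and treatment length. Nothing in the labels says that libraries came from separate animals, and p-values then measure only the spread among these libraries, which may be technical.

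The clock is a feedback loop of transcription that runs in nearly every cell. The CLOCK and BMAL1 proteins bind E-box sequences and switch on the Per, Cry, Nr1d1, Dbp and Ciart genes. The PER and CRY proteins then return to the nucleus and block CLOCK and BMAL1, while REV-ERB alpha represses Arntl, so that Arntl transcripts peak in antiphase to those of Dbp and Nr1d1. Per1 and Per2 are also induced within a short time by outside signals, through CREB and the glucocorticoid receptor. A single dissection samples each clock gene at whatever phase the tissue had then. Because the time of dissection was not given, a difference in that time between groups cannot be told apart from the group differences below. This holds for cuprizone and for BTKi alike, and it was not tested.

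Levels are in FPKM, a count of fragments divided by gene length and library depth, which corrects for length and so allows genes to be set beside each other. Over the 24 libraries the mean level was 70.2 FPKM for Nr1d1, 59.7 for Dbp, 36.5 for Cry2, 34.4 for Per1, 15.2 for Ciart, 13.3 for Arntl, 10.3 for Per3, 9.31 for Clock, 8.91 for Per2 and 6.00 for Cry1. The highest library exceeded the lowest by 1.26 times for Cry2 and by 2.04 times for Per2. Between those, Ciart spanned 1.99 times, Per1 1.64 times and Arntl 1.42 times. Inside the groups the coefficient of variation was smallest for Cry2 (4.72%) and largest for Ciart (12.3%). The thinnest value behind any of these genes was about 499 fragments, for Cry1, where fragment counting alone gives a coefficient of variation of 4.48%.

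**Figure D1:**
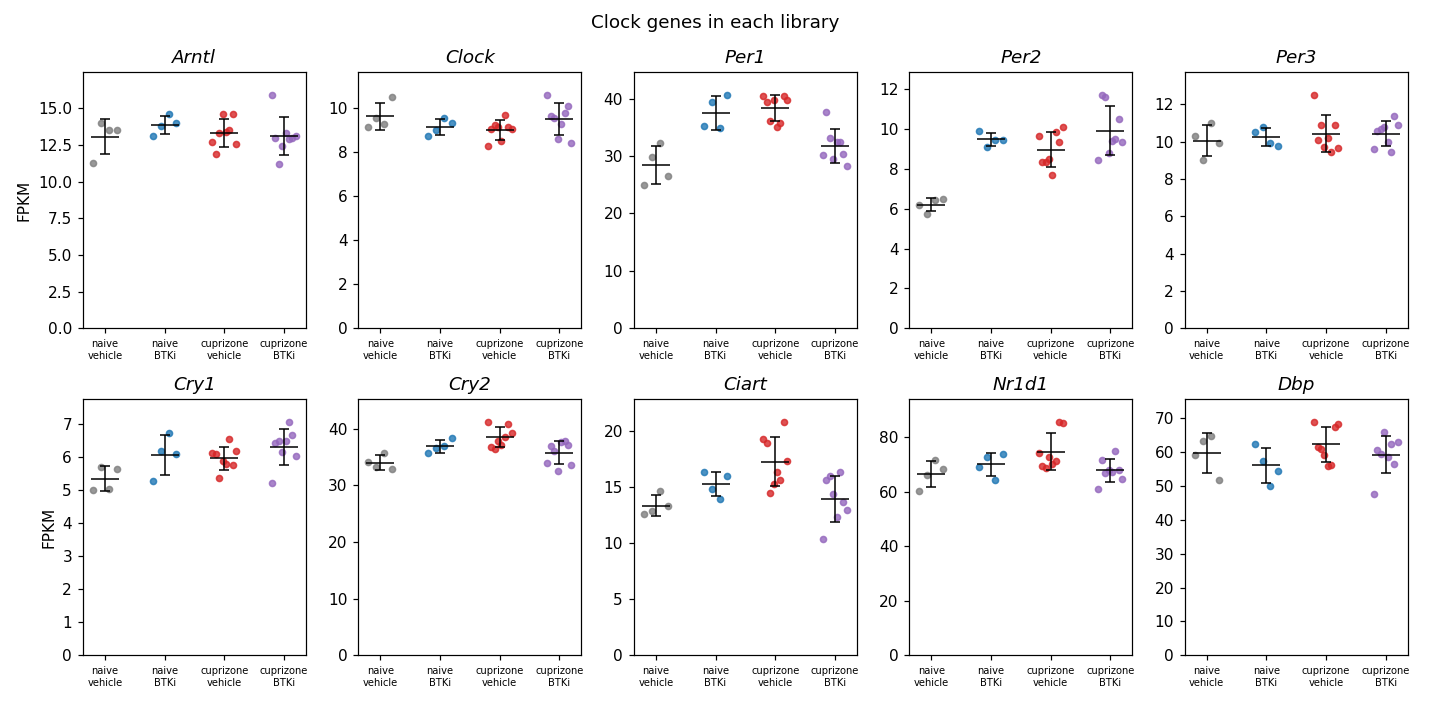
Level of each of the 10 clock genes (FPKM, linear axis from 0) in each of the 24 libraries, by group. Points are libraries and bars are the group mean with its SD. Per2 in naive vehicle libraries (5.73 to 6.51 FPKM) lies under every other library, whereas Per3, Arntl, Clock and Dbp overlap in all 4 groups.

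Start regions of 4 of the genes are shown because such regions can hold the sequences that clock proteins bind. They run from 250 bases before to 50 bases after the RefSeq transcription start, in GRCm38.p6, and 9 of the 10 genes, all but Per2, matched an entry, with 13 start regions in all. Per1 is shown for its E-box, Ciart for its repeated E-boxes, Cry2 for the variant E-box and Per3 as the period gene that did not pass any test. Capitals mark the motif matches. Per1 lies on the plus strand at chr11:69098699-69098998 (the first of 2 starts in RefSeq), Ciart on the minus strand at chr3:95882179-95882478, Cry2 on the minus strand at chr2:92434020-92434319 and Per3 on the minus strand at chr4:151044616-151044915. All are written 5′ to 3′ on the gene's strand.
Per1: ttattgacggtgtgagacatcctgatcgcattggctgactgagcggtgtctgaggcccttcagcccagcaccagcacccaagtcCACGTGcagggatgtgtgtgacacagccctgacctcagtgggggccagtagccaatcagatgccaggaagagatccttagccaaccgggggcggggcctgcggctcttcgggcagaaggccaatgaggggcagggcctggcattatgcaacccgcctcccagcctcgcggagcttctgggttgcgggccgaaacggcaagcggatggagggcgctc
Ciart: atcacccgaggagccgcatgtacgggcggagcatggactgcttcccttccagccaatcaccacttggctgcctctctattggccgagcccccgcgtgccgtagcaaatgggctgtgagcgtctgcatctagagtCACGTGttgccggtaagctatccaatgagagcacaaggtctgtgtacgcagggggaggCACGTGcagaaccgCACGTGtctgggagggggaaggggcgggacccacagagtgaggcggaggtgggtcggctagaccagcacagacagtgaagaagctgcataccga
Cry2: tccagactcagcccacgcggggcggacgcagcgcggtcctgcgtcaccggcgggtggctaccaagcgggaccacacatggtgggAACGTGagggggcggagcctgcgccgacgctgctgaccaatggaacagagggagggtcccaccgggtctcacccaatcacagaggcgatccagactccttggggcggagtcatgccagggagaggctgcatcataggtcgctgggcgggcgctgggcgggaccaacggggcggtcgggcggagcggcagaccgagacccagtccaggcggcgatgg
Per3: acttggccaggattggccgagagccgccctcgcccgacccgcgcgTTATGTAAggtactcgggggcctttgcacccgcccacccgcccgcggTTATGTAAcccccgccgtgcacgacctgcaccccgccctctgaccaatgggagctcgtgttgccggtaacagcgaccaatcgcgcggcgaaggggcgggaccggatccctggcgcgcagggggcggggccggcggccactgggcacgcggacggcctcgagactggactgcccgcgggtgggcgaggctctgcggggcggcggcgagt

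Both strands were searched for 5 motifs. The E-box CACGTG was found in 3 of the 13 start regions, each of another gene, and in 7.15% of all 32851 start regions of the same length. Positions are counted from the transcription start, negative before it. The match in Per1 begins at -166 and that in Cry1 at -60. Ciart holds 3 matches, at -116, -58 and -44. The variant E-box CACGTT, read as AACGTG on the other strand, was found in 3 of the 13, those of Cry1 (-79), Cry2 (-166) and Nr1d1 (-28), and in 4.68% of all start regions. The D-box TTATGTAA, the site of DBP and its relatives, occurred in 1 of the 13, that of Per3, at -205 and -158, and in 0.938% of all start regions. The element bound by REV-ERB and ROR proteins (AA, any base, then TAGGTCA) was found in 1 of the 13, at the second RefSeq start of Arntl, 27 bases after it, and in 0.219% of all start regions. The full CREB site TGACGTCA was in 0 of the 13 windows and in 1.79% of all. For each motif only the letters given were searched, and only inside these windows. Shorter or altered forms and sites farther away were not searched, so a count of 0 does not show that a gene lacks such a site. A match is a description of letters, and whether any of these sites was bound was not measured.

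Among the 10 genes, 4 were higher in cuprizone than in naive mice under vehicle: Per1, Per2, Cry2 and Ciart, all of which code for repressors of CLOCK and BMAL1. Per1 was 1.35 times and Per2 1.41 times as high, Ciart 1.28 times and Cry2 1.13 times. In all, 15.0% of the 15216 genes tested passed in this comparison, in either direction. The median difference of the 10 genes was 0.15 on the log2 scale against 0.03 over all genes tested, and 9 of the 10 differences were positive against 9030 of 15216. The tests were made with limma on log2(FPKM + 0.5), with all 4 groups in 1 model and Benjamini-Hochberg adjustment over all genes tested, and every difference below is on that log2 scale.

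Per1 encodes a period protein and is the clock gene that answers outside signals fastest. Its gene (ENSMUSG00000020893.17) lies at chr11:69095217-69109960 on the plus strand. In the 4 naive vehicle libraries Per1 stood at 24.9, 29.9, 32.3 and 26.5 FPKM. In the 8 cuprizone vehicle libraries it ran from 35.1 to 40.5 FPKM with a median of 39.6. All 8 cuprizone libraries were above all 4 naive ones. The difference was 0.43 (SE 0.07, limma adjusted p = 7.41e-05).

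Per2, the other light-responsive period gene, is ENSMUSG00000055866.9 at chr1:91415982-91459324 on the minus strand. Naive vehicle libraries held 6.18, 5.73, 6.42 and 6.51 FPKM of Per2, against 7.67 to 10.1 FPKM (median 8.91) in cuprizone vehicle libraries. The groups did not overlap, and the difference was 0.49 (SE 0.08, limma adjusted p = 5.73e-05). Per3, a period gene that is not needed for the loop to run, averaged 10.0 ± 0.821 FPKM (SD, n = 4) in naive and 10.4 ± 1.01 FPKM (SD, n = 8) in cuprizone vehicle libraries. Its difference of 0.05 had a 95% interval from -0.08 to 0.18, and the groups overlapped.

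Cry2, which encodes a cryptochrome, the partner that carries out the repression with the period proteins, held 34.2, 33.2, 35.7 and 32.8 FPKM in naive vehicle libraries. In cuprizone vehicle libraries Cry2 ran from 36.4 to 41.1 FPKM with a median of 38.2. The ranges were close but did not overlap, and the difference was 0.18 (SE 0.04, limma adjusted p = 0.00434). Cry1, the second cryptochrome, differed by 0.15 (95% interval 0.01 to 0.28) with a limma adjusted p of 0.151, so it did not pass. Groups without overlap were thus seen for Per1, Per2 and Cry2, 3 of the 10 genes, against 8.77% of all genes tested.

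Ciart encodes CHRONO, a further repressor of CLOCK and BMAL1. Naive vehicle libraries held 12.6, 12.9, 14.7 and 13.3 FPKM of Ciart, and cuprizone vehicle libraries 14.5 to 20.8 FPKM with a median of 16.9. The highest naive library lay just inside the cuprizone range. The difference was 0.35 (SE 0.10, limma adjusted p = 0.0151). Of the cuprizone vehicle libraries, 3 were poor in choroid plexus RNA (replicates 1, 4 and 7, with 122, 29.5 and 34.4 summed FPKM of 5 marker genes). Without these 3, an alternative chosen after seeing the data, the difference was 0.30 with a limma adjusted p of 0.0540.

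The activators and the output genes did not pass under vehicle. Arntl, which encodes the BMAL1 activator, held 11.3, 14.0, 13.5 and 13.5 FPKM in naive vehicle libraries and 11.9 to 14.6 FPKM (median 13.3) in cuprizone vehicle libraries, fully overlapping. Its difference of 0.03 had a 95% interval from -0.11 to 0.17. Clock, its partner, differed by -0.09 (interval -0.20 to 0.02). Nr1d1, the repressor of Arntl, averaged 66.5 ± 4.73 FPKM (SD, n = 4) against 74.6 ± 6.82 FPKM (SD, n = 8), a difference of 0.16 (interval 0.04 to 0.29) that missed the threshold with a limma adjusted p of 0.0783. Cuprizone vehicle replicates 7 and 8 held 85.3 and 85.2 FPKM, and the other 6 held 68.6 to 74.1 FPKM. Dbp, an output transcription factor, differed by 0.06 (interval -0.10 to 0.22).

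In naive mice Per1 and Per2 were higher with BTKi than with vehicle. They were 2 of the 10 genes, where 0.217% of all genes tested passed. This comparison and that of cuprizone under vehicle share the naive vehicle libraries, so a low level there enters both. In naive BTKi libraries Per1 stood at 35.3, 39.4, 34.8 and 40.6 FPKM, all above the naive vehicle libraries, a difference of 0.40 (SE 0.08, limma adjusted p = 0.0332). Per2 stood at 9.90, 9.11, 9.47 and 9.44 FPKM, a difference of 0.57 (SE 0.09, limma adjusted p = 0.00317), or 1.49 times. Cry2 held 35.7, 36.6, 36.9 and 38.4 FPKM under BTKi. Its lowest value and the highest under vehicle were equal to 3 digits, so the groups only just failed to overlap, and the difference of 0.12 did not pass (limma adjusted p = 0.303). The 3 genes without overlap, Cry2 by that margin, stood against 7.36% of all genes tested.

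The Per1 call in naive mice rests on few libraries. It ended without naive vehicle replicate 1, 2 or 4 or naive BTKi replicate 2, 3 or 4 (limma adjusted p from 0.0509 to 0.149). It also ended with only the 2 groups in the fit (limma adjusted p = 0.167), without a filter on low values (0.0591), and without the 3 libraries poor in choroid plexus RNA (0.0509), though the difference stayed between 0.34 and 0.46 when any 1 library was left out. The Per2 call held without any 1 library, with a highest limma adjusted p of 0.0199. The other 7 genes had differences from -0.09 (Dbp, interval -0.27 to 0.09) to 0.19 (Ciart, interval -0.05 to 0.42) in naive mice. The median over the 10 genes was 0.10, against -0.02 over all genes tested.

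In cuprizone mice Per1 was lower with BTKi than with vehicle. In the 8 cuprizone BTKi libraries Per1 ran from 28.2 to 37.7 FPKM with a median of 31.4, against 35.1 to 40.5 FPKM under vehicle. Replicate 2 under BTKi, at 37.7 FPKM, lay inside the vehicle range and the other 7 lay below it. The difference was -0.27 (SE 0.06, limma adjusted p = 0.0474), or 0.83 times, and Per1 was the 1 gene of the 10 to pass, where 0.177% of all genes tested did. The adjusted p stood close to the threshold: the call ended in 15 of the 24 fits that left out 1 library, namely without naive BTKi replicate 1 or 2, cuprizone vehicle replicate 1, 2, 3, 4, 7 or 8, or cuprizone BTKi replicate 1, 3, 4, 5, 6, 7 or 8, with an adjusted p of up to 0.103 and a difference from -0.31 to -0.25. Median ratio scaling (0.0621), quantile normalization (0.0610) and no filter on low values (0.104) ended it as well, and without the 3 libraries poor in choroid plexus RNA the limma adjusted p was 0.249 at a difference of -0.23.

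Of the remaining genes, Ciart fell short of the threshold at -0.30 (interval -0.46 to -0.13, limma adjusted p = 0.167). Ciart ran from 10.4 to 16.4 FPKM under BTKi, with a median of 14.0, and its lowest value was in replicate 1. Cry2 differed by -0.11 (interval -0.18 to -0.04, limma adjusted p = 0.308) and Nr1d1 by -0.14 (interval -0.24 to -0.03, limma adjusted p = 0.409). Per2 went the other way, by 0.13 (interval 0.00 to 0.26, limma adjusted p = 0.538), with 8.47 to 11.7 FPKM under BTKi. Arntl (-0.03, interval -0.14 to 0.08), Per3 (0.00, interval -0.10 to 0.11) and Clock (0.07, interval -0.02 to 0.16) had narrow intervals around 0. At an unadjusted p under 0.05 there were 5 genes of the 10, against 1338 of 15216.

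The difference that went with BTKi in Per1 was not the same in cuprizone and in naive mice. Per1 rose with BTKi in naive mice and fell with it in cuprizone mice, and the difference between the effects was -0.67 (interval -0.87 to -0.47, limma adjusted p = 0.00187). It was 1 of the 10 genes to pass, where 0.125% of all genes tested did. It passed in all 24 fits that left out 1 library, with a highest limma adjusted p of 0.0114 and values from -0.74 to -0.61. The naive vehicle libraries enter this contrast too, so a low level in that group as a whole would enter it, which leaving out 1 library does not address. Without the 3 libraries poor in choroid plexus RNA it was -0.63 (limma adjusted p = 0.0145). Per2 had -0.44 (interval -0.66 to -0.21, limma adjusted p = 0.143), Ciart -0.49 (interval -0.77 to -0.20, 0.248) and Cry2 -0.23 (interval -0.35 to -0.10, 0.204), none of which passed over all genes.

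Ordered by mean level, Per1 ran from cuprizone vehicle (38.4 ± 2.29 FPKM, SD, n = 8) through naive BTKi (37.5 ± 2.93, n = 4) and cuprizone BTKi (31.8 ± 2.94, n = 8) to naive vehicle (28.4 ± 3.32, n = 4), and the ranges of each pair of neighbours overlapped. Per2 had another order, with cuprizone BTKi (9.91 ± 1.22 FPKM, SD, n = 8), naive BTKi (9.48 ± 0.324, n = 4) and cuprizone vehicle (8.97 ± 0.871, n = 8) overlapping and naive vehicle (6.21 ± 0.350, n = 4) apart. Under BTKi, cuprizone and naive mice differed in Per2 by 0.05 (interval -0.11 to 0.21). Per1 was lower in cuprizone than in naive mice under BTKi by -0.24 (SE 0.07, limma adjusted p = 0.0296). That was 1 of the 10 genes, where 7.87% of all genes tested passed, and the median over the 10 was -0.01. The call ended without naive BTKi replicate 2 or 4 or cuprizone BTKi replicate 4 or 8 (limma adjusted p from 0.0530 to 0.141), and without a filter on low values (0.0691).

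**Figure D2:**
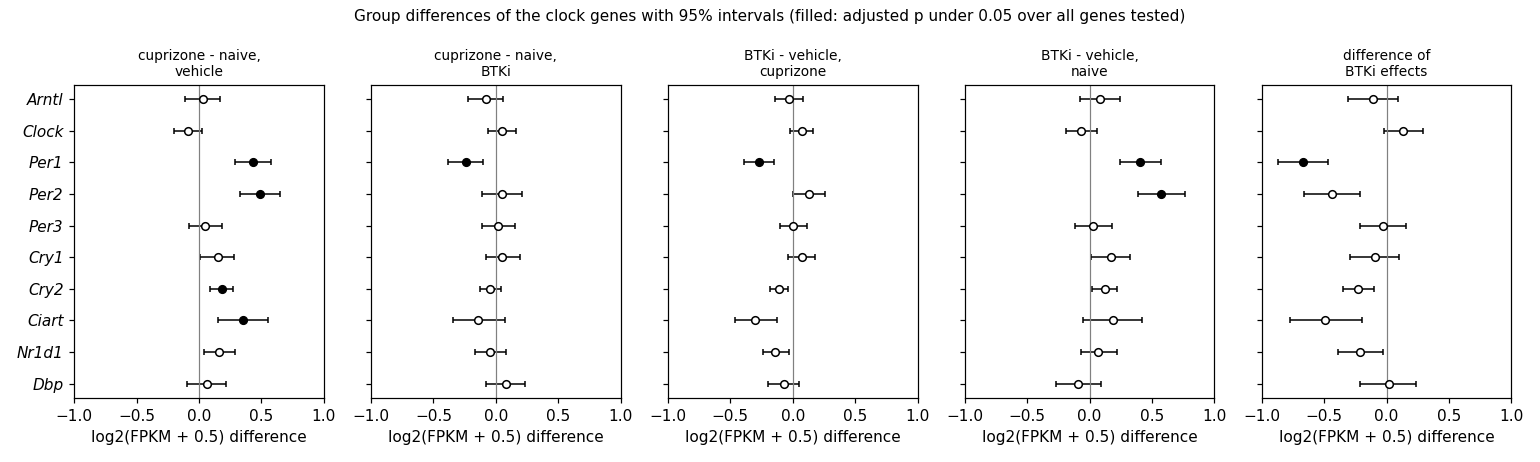
Difference in log2(FPKM + 0.5) for each of the 10 clock genes in the comparisons named above the panels, with 95% intervals from limma. Filled points passed an adjusted p of 0.05 over all 15216 genes tested. Per1 is at 0.43 for cuprizone under vehicle, 0.40 for BTKi in naive mice, -0.27 for BTKi in cuprizone mice and -0.67 for the difference of the BTKi effects, while Arntl stays near 0 throughout.

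Markers of other cells were read beside these results. Oligodendrocyte genes (6 markers) summed to 1515 to 2174 FPKM in naive vehicle, 1238 to 1291 in naive BTKi, 452 to 791 in cuprizone vehicle and 484 to 1063 in cuprizone BTKi libraries. All 6 were lower in cuprizone mice under vehicle and under BTKi, comparisons in which 15.0% and 7.87% of all genes tested passed. In naive mice, where Per1 and Per2 were higher with BTKi, the sums did not overlap, and the 6 differences ran from -0.65 to -0.23 with none passing by limma. General neuron markers (5) held 1681 to 2113 summed FPKM in all libraries and none passed by limma in any comparison, with differences from -0.19 to 0.13. Striatal neuron markers were not level: all 5 were lower in cuprizone under vehicle (differences from -1.28 to -0.87), the comparison with the 4 clock calls. They summed to 134 to 347 FPKM in naive vehicle, 116 to 193 in naive BTKi, 64.6 to 128 in cuprizone vehicle and 64.7 to 170 in cuprizone BTKi libraries. With BTKi in naive mice the striatal differences ran from -0.71 to -0.44, none passing by limma. Without naive vehicle replicate 2, the library with 347, the count of clock genes called in cuprizone under vehicle was still 4. That fit leaves the striatal difference in place, because naive vehicle replicates 1, 3 and 4 (165, 212 and 134 FPKM) also lay above every cuprizone vehicle library. Of 4 microglia markers, 2 were higher in cuprizone under vehicle and 2 under BTKi, and the sums were 53.0 to 68.1 FPKM in naive and 69.3 to 122 FPKM in cuprizone libraries. Choroid plexus markers (5) ranged from 29.5 to 2513 summed FPKM, and none passed by limma in any comparison, with differences from -2.15 to 1.91. Of the 5 markers of the suprachiasmatic nucleus, the master clock of the hypothalamus, Six6 was at most 0.0246 FPKM, Lhx1 at most 0.434 FPKM and Avp at most 1.42 FPKM in any library. The other 2 were present, Vip at 7.02 to 19.8 FPKM and Rgs16 at 3.42 to 21.7 FPKM, and the list summed to 17.9 to 29.1 FPKM. In bulk tissue fewer cells of a type and less RNA per cell cannot be told apart, and the part of cell makeup in the clock values was not tested.

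Signals known to induce Per1 were also read. The 7 immediate early genes, which like Per1 answer CREB and related signals, summed to 388 to 433 FPKM in naive vehicle, 402 to 426 in naive BTKi, 375 to 494 in cuprizone vehicle and 232 to 362 in cuprizone BTKi libraries. With BTKi in cuprizone mice 5 of the 7 were lower, where 0.177% of all genes tested passed. The differences were -0.96 for Nr4a1, -0.98 for Arc, -0.86 for Junb, -0.59 for Dusp1 and -0.54 for Fos, with limma adjusted p of 0.00171 or less. In naive mice, where BTKi went with higher Per1, none of the 7 passed by limma (adjusted p from 0.0634 for Npas4 to 0.917 for Arc), against 0.217% of all genes tested. In cuprizone under vehicle, where Per1 and Per2 rose, 1 of the 7 passed, a share near the 15.0% of all genes tested. That gene was Npas4, which was lower (-0.74, limma adjusted p = 0.00274). For the difference of the BTKi effects, where Per1 had -0.67, 3 of the 7 passed by limma against 0.125% of all genes tested. They were Nr4a1 (-0.90, limma adjusted p = 0.00187), Arc (-1.03, 0.0103) and Junb (-0.70, 0.0305), and the 7 values ran from -1.03 to 0.28. Under BTKi 4 of the 7 were lower in cuprizone than in naive mice, as was Per1, against 7.87% of all genes passing. These were Nr4a1, Arc, Junb and Dusp1 (limma adjusted p of 0.00847 or less). The 6 glucocorticoid-induced genes summed to 78.6 to 90.9 FPKM in naive vehicle, 83.4 to 109 in naive BTKi, 74.0 to 96.3 in cuprizone vehicle and 89.9 to 111 FPKM in cuprizone BTKi libraries. In cuprizone under vehicle Fkbp5 (0.30, limma adjusted p = 0.00273) and Zbtb16 (0.23, 0.0363) were higher and Tsc22d3 lower (-0.22, 0.0499). With BTKi in cuprizone mice Zbtb16 (0.41) and Map3k6 (0.43) were higher. None of the 6 passed by limma with BTKi in naive mice (adjusted p from 0.137 for Zbtb16 to 0.871 for Tsc22d3). These lists were chosen with earlier results known, and their part in the Per1 result was not tested.

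Of 24 further clock genes on a list drawn up beside the 10, 3 were higher and 1 lower in cuprizone under vehicle. That share was near the 15.0% of all genes tested that passed there. In the other 4 comparisons 0 passed by limma. At an unadjusted p under 0.05 there were 2 for cuprizone under BTKi, 3 for BTKi in cuprizone, 4 for BTKi in naive and 4 for the difference of the BTKi effects. In the same order, the counts over all 15216 genes tested were 2811, 1338, 1922 and 1482. Under vehicle, Bhlhe40, which encodes DEC1, a repressor that competes for E-boxes, rose by 0.36 in cuprizone (SE 0.09, limma adjusted p = 0.00928). It held 47.0 ± 5.91 FPKM (SD, n = 4) in naive and 60.5 ± 9.08 FPKM (SD, n = 8) in cuprizone libraries. Nfil3, the repressor that opposes DBP at D-boxes, rose by 0.36 (SE 0.09, limma adjusted p = 0.00581), from 4.34 ± 0.179 to 5.74 ± 0.457 FPKM, with no overlap. Csnk1d, a kinase that marks PER proteins for breakdown, rose by 0.11 (SE 0.04, limma adjusted p = 0.0441). Npas2, the substitute for CLOCK, fell by 0.22 (SE 0.06, limma adjusted p = 0.0153), from 12.4, 12.2, 13.2 and 12.3 FPKM to between 9.64 and 11.7 FPKM, with no overlap.

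Some of these 4 depended on single libraries or settings. Bhlhe40 missed the threshold without naive vehicle replicate 2 (limma adjusted p = 0.0602) and Npas2 without naive vehicle replicate 3 (0.0621). Csnk1d missed it without any 1 of naive vehicle replicates 1, 3 and 4, cuprizone vehicle replicates 2, 5, 6, 7 and 8 and cuprizone BTKi replicates 4 and 7 (0.0502 to 0.148), and under median ratio scaling (0.117), quantile normalization (0.113), no filter on low values (0.0554) and with only the groups compared (0.0640). Nr1d2, the relative of Nr1d1, differed by 0.09 (interval -0.01 to 0.19) in cuprizone under vehicle. Tef and Hlf, the relatives of Dbp, differed by 0.06 (interval -0.03 to 0.16) and -0.09 (interval -0.19 to 0.01).

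Within a group no group difference enters the spread between libraries, and whether that spread comes from the clock was not tested. Arntl was set against each of the other 9 genes inside the 2 groups of 8, which gave 18 relations, and none passed after adjustment over the 18 (1 had an unadjusted exact permutation p for r under 0.05). In cuprizone vehicle libraries Pearson's r ran from -0.31 (Cry1) to 0.27 (Clock), 5 of 9 being negative. In cuprizone BTKi libraries r ran from -0.83 (Ciart) to 0.45 (Clock), 8 of 9 being negative. For Ciart the exact permutation p for r = -0.83 was 0.0112 (adjusted p = 0.202), and Spearman's rho was -0.88 with an exact permutation p of 0.00724 (adjusted p = 0.130). Without replicates 1 and 3, the libraries farthest from the median of Arntl, r was -0.46.

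Dbp against Arntl, the pair whose antiphase is best known, gave r = -0.75 in cuprizone BTKi libraries (exact permutation p = 0.0698, adjusted p = 0.419; rho = -0.55, exact permutation p = 0.171). It gave r = -0.16 in cuprizone vehicle libraries (exact permutation p = 0.691, adjusted p = 0.829; rho = -0.40, exact permutation p = 0.327). Without the 2 libraries farthest from the Arntl median r was -0.74 and -0.66. The value under BTKi moved with single libraries, and without cuprizone BTKi replicate 1 alone r was -0.09, and without replicate 3 alone -0.94. Replicate 1 held the highest Arntl (15.9 FPKM, the next at 13.3) and the highest Clock (10.6 FPKM) of its group, and the lowest Dbp (47.6 FPKM), Ciart (10.4 FPKM) and Nr1d1 (61.0 FPKM).

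**Figure D3:**
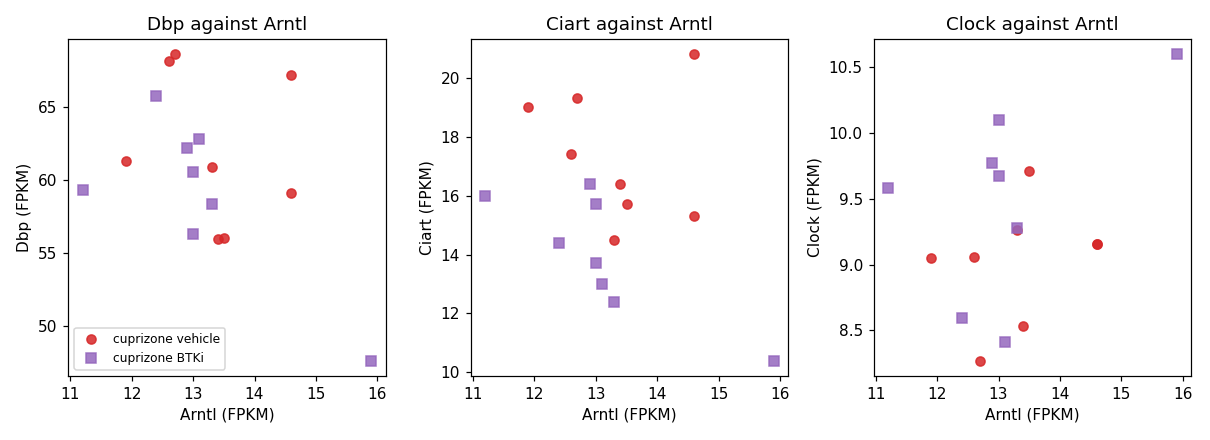
Dbp, Ciart and Clock (FPKM) against Arntl (FPKM) in the 8 cuprizone vehicle and the 8 cuprizone BTKi libraries, 1 point per library, on axes that do not start at 0. Cuprizone BTKi replicate 1 is the point at 15.9 FPKM of Arntl, and Pearson's r of Dbp with Arntl goes from -0.75 to -0.09 without it alone and to -0.74 without it and replicate 3.

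Over all 24 libraries, after each group mean was subtracted on the log2 scale, the strongest positive correlations among the 10 genes were Nr1d1 with Ciart (0.65), Dbp with Ciart (0.64) and Per1 with Nr1d1 (0.63). The strongest negative one was Clock with Dbp (-0.69), followed by Arntl with Ciart (-0.47). Arntl with Clock gave 0.44 and Arntl with Dbp -0.43. Cuprizone BTKi replicate 1, on which the relation of Dbp with Arntl in its group depended, is included in these values. Correlations as strong as that of Clock with Dbp were also seen outside the 10 genes. Gsk3b, a further clock gene, gave 0.73 with Clock and -0.68 with Dbp. These are descriptions over libraries that share the scaling of FPKM and differ in tissue makeup. Among 15206 other genes, Arntl was most like Mpc2 (0.75) and Peli3 (0.72) and most unlike Slc19a1 and Bmp4 (both -0.73). Dbp was most like Rps6ka4 (0.83) and Sema4b (0.81) and most unlike Dpp8 (-0.83) and Fmn2 (-0.80).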

How the data were processed

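The 24 libraries were made from polyadenylated RNA with the Qiagen RNeasy Micro and TruSeq stranded mRNA kits, per the labels' protocols. Aligner, counter, build and annotation were not given in the sources used here. As values, the authors deposited FPKM values, 1 per gene and library. Of 54446 gene IDs, 53229 matched GENCODE M21 (GRCm38) with their version, and 54409 were given a symbol. Library totals were 462521 to 496350 FPKM. Depth, read from the steps of low values, was about 2.65e+07 fragments in cuprizone BTKi replicate 5 and 2.98e+07 to 3.10e+07 in the others, an estimate that rests on GENCODE lengths.

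The filter kept 15216 genes whose FPKM averaged 0.5 or more, all 10 clock genes and the 24 further ones included. Their log2(FPKM + 0.5) values entered limma 3.58.1 (R 4.3.3, trended eBayes), with 4 groups in 1 model and Benjamini-Hochberg adjustment at 0.05 over all genes tested. Count tests were not used on these values. FPKM is a share of the library, and a fold on the log2(FPKM + 0.5) scale understates low genes. Correlations used exact two-sided permutation of pairings in SciPy 1.17.1. The fit was tested on simulated data. The 10 genes, the gene lists, the naming rule and the tests were chosen with earlier results of these data known. All 10 clock genes were named, with Nr1d2, Tef, Hlf, Npas2, each further clock gene that passed in any comparison, and the genes most like and unlike Arntl and Dbp. Alternatives were pseudocounts of 0.1 and 1, no filter, median ratio scaling, quantile normalization, the replicate block, only the groups compared, and each library left out. Start regions and their sequences come from RefSeq.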

Additional observations from a re-analysis of the deposited data

Results flagged for a closer look

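Several single values stood apart from their groups. Arntl was 15.9 FPKM in cuprizone BTKi replicate 1, where the next library had 13.3. Csnk1d was 28.9 FPKM in naive BTKi replicate 1, with the next at 32.6. Npas2 was 12.5 FPKM in naive BTKi replicate 3, with the next at 11.4. Nr1d2 was 25.0 FPKM in naive vehicle replicate 1, with the next at 28.2, and Tef was 94.1 FPKM in cuprizone vehicle replicate 1. In each case the gap to the nearest library was large for the range of the group by Dixon's test. In all, 68 groups of 17 genes were looked at, and chance alone picks out about 5% of such groups.

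The effect of BTKi on Per1 differed between cuprizone and naive mice by -0.67 (SE 0.10, limma adjusted p = 0.00187), higher with BTKi in naive mice and lower in cuprizone mice.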

How the results depend on the processing

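Of the counts over the 10 clock genes, that for cuprizone under vehicle (4) and that for the difference of the BTKi effects (1) were within 1.5 times of their value in every alternative run. For cuprizone under BTKi the count of 1 became 0 without a filter on low values and with the replicate block, and was 0 to 1 when each library was left out in turn. For BTKi in cuprizone mice it became 0 without a filter, under median ratio scaling, under quantile normalization, with the replicate block and without the 3 libraries poor in choroid plexus RNA, and was 0 to 1 over single libraries left out. For BTKi in naive mice the count of 2 became 1 without a filter, with the replicate block, without the 3 libraries and with only the groups compared, and was 1 to 2 over single libraries left out. Of the 24 further clock genes, 1 passed for cuprizone under BTKi under median ratio scaling and with only the groups compared, and 0 to 1 over single libraries left out, against 0. No value that passed its test changed direction.

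Whether the replicate numbers pair the libraries was not settled. The correlation of same-numbered libraries passed 0.1 in 2 of 4, 0 of 4, 3 of 8 and 0 of 4 pairs (cuprizone under vehicle, cuprizone under BTKi, BTKi in cuprizone, BTKi in naive). In the same order, 2 of 4, 0 of 4, 2 of 8 and 2 of 4 libraries correlated best with their own number. With the block the limma adjusted p of Per1 was 0.124 for cuprizone under BTKi, 0.0681 for BTKi in cuprizone, 0.0519 for BTKi in naive and 0.00758 for the difference. For cuprizone under vehicle it was 0.0613 for Ciart, 0.0662 for Bhlhe40 and 0.154 for Csnk1d.

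Over all genes, BTKi in cuprizone called 27 (16 without a filter, 11 without the 3 libraries, 14 to 34 over single libraries left out), BTKi in naive 33 (21 without a filter, 19 without the 3 libraries, 3 with only the groups compared, 7 to 41) and the difference 19 (9 with the block, 7 without the 3 libraries, 8 to 23). Scaling moved the split of higher against lower calls for cuprizone under vehicle from 1555 and 733 to 1229 and 978 (median ratio) or 1205 and 1072 (quantile), for cuprizone under BTKi from 929 and 269 to 772 and 406 or 724 and 395, and for BTKi in naive from 16 and 17 to 23 and 16 or 22 and 7. Those causes were not tested. Depth bears most on Cry1, whose counting coefficient of variation in its lowest library (4.48%) compares with 7.91% within groups.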
